A study of Mus musculus with 6 samples.

Results

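The interferon-inducible GTPases examined here are 10 mouse genes of 3 families: the guanylate-binding proteins Gbp2, Gbp3, Gbp6 and Gbp7, the immunity-related GTPases Irgm1, Irgm2, Igtp and Iigp1, and the Mx proteins Mx1 and Mx2. They were picked by gene symbol out of 41838 genes, and they were selected with their difference between the groups in view, so that difference is given as a description and not as a test. Their messenger RNA was measured in 6 mouse livers by sequencing of poly(A) RNA. Of these, 3 came from mice written Alkbh5flox/flox (flox), which carry the floxed Alkbh5 gene, and 3 from mice written Alkbh5-HKO in the protocol and Alkbh5-CKO in the sample titles (HKO). The series asks how ALKBH5, an enzyme that removes the methyl group of N6-methyladenosine from RNA, affects liver function.

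Each library is 1 of 3 biological replicates per group, described by the submitters as independent. Whether the HKO mice also carry floxed alleles is not spelled out. The Cre driver, the deleted part of Alkbh5, the strain and the sex were not stated in the sources used here. The 9 weeks named for the mice stand as their age in the series text and as time on normal chow in the labels' protocol. In bulk liver RNA, a change in the number of cells of a type and a change in RNA per cell cannot be told apart. Levels are given as FPKM, read pairs per gene scaled by gene length and library size, so that they can be compared between genes.

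Interferons are cytokines released during infection. They act through JAK kinases, STAT transcription factors and interferon regulatory factors (IRF), and the GTPases examined here are among the genes they induce most strongly. Guanylate-binding proteins and immunity-related GTPases gather on the vacuoles that hold intracellular bacteria and parasites and help to break them open, with Irgm1, Irgm2 and Igtp acting as regulators that keep effectors such as Iigp1 off the cell's own membranes. Mx proteins are dynamin-like GTPases that block viruses. Interferon-gamma is the classical inducer of the first 2 families, and type I and type III interferons of the Mx genes. Type I interferon can also induce guanylate-binding proteins.

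The DNA before the start sites is shown first, since it holds the letters that STAT and IRF proteins are known to bind. RefSeq promoter windows of GRCm38.p6 were matched for 6 of the 10 genes. Gbp6, Iigp1, Mx1 and Mx2 had no match. Each line gives 100 bases, 5′ to 3′ on the strand of the gene, from 110 to 11 bases before the RefSeq start. Capitals mark the IRF core (GAAA, any 2 bases, GAAA) and the STAT core (TTCNNNGAA), searched on both strands, where the IRF core reads TTTC, any 2 bases, TTTC on the other strand.
Gbp7, chr3:142530226-142530325, plus strand: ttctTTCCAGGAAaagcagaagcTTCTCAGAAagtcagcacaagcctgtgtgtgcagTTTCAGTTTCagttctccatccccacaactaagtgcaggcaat
Gbp3, chr3:142559934-142560033, plus strand: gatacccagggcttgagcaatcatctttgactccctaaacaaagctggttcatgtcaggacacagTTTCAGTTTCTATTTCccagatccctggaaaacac
Gbp2, chr3:142620553-142620652, plus strand: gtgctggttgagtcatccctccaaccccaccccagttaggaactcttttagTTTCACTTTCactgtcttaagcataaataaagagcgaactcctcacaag
Irgm1, chr11:48871431-48871530, minus strand: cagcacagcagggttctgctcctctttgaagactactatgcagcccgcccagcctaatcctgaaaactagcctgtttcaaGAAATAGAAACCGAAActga
Igtp, chr11:58199446-58199545, plus strand: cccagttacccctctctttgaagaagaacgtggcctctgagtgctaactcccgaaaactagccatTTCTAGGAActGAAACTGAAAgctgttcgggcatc
Irgm2, chr11:58214867-58214966, plus strand: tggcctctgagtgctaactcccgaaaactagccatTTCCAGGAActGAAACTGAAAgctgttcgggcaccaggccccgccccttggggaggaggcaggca

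The IRF core was found in each of these 6 windows. It began 53 bases before the start in Gbp7, 59 in Gbp2, 34 in Igtp and 64 in Irgm2. Gbp3 and Irgm1 each held 2 overlapping copies, beginning 45 and 39 bases before the start in Gbp3 and 30 and 24 bases before it in Irgm1. The STAT core was found in 3 of the 6: at 106 and 87 bases before the start in Gbp7, at 45 in Igtp and at 75 in Irgm2. A second RefSeq start of Gbp3 had neither motif in its 250 bases. Igtp and Irgm2 lie side by side, and the last 70 bases printed for Igtp matched the first 70 printed for Irgm2 at 68 positions, 97.1%.

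Over the 250 bases before the start, the IRF core was present in 2.98% and the STAT core in 7.02% of all 32851 RefSeq promoter windows. Among other interferon-inducible GTPases, 5 of 10 genes with a window held the IRF core and 4 of 10 the STAT core. Of the type I interferon-leaning targets described later, 8 of 17 held the IRF core and 3 of 17 the STAT core. In dynamin-superfamily genes outside the interferon system, such as Dnm2 and Atl2, 0 of 13 genes held either motif. These matches describe letters in a window, and no binding was measured.

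The libraries held 14907384 to 17034754 reads, recovered from the FPKM as whole numbers. Alkbh5 (chromosome 11, 60537683 to 60558512) fell from 16.5 ± 1.56 FPKM in flox (SD, n = 3) to 0.476 ± 0.0322 in HKO, a log2 difference of -3.56 (SE 0.12) that passed limma's test (Benjamini-Hochberg, BH, adjusted p 8.14e-05). Hepatocyte markers, led by Alb, summed to between 47797 and 58974 FPKM in every library. In a principal component analysis, the leading component (44.0% of the variance) placed flox libraries 1 to 3 at -22.7, -22.4 and -13.7. HKO libraries 1 to 3 lay at 38.6, 15.7 and 4.51, so library 1 stood apart within HKO. Red cell markers summed to 352 to 674 FPKM in flox and 105 to 209 in HKO. Differences are HKO minus flox on log2(FPKM + 1), which understates the change of genes at low FPKM.

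Of the 10 GTPases, 9 averaged 1 FPKM or more across the 6 libraries, the level required for the fit, and each of these 9 reached a mean of 1 in flox alone. Igtp did not. In all 9, each HKO library lay above each flox library, against 12.8% of 10453 genes fitted, and 1 of the 9, Gbp3, passed the limma test with BH adjustment, against 0.268% of genes fitted. Since the genes were selected on this contrast, nothing is read from either count. The median log2 difference of the 9 was 1.15, with a range of 0.77 to 1.90, beside a median of -0.02 over all genes fitted.

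**Figure D1:**
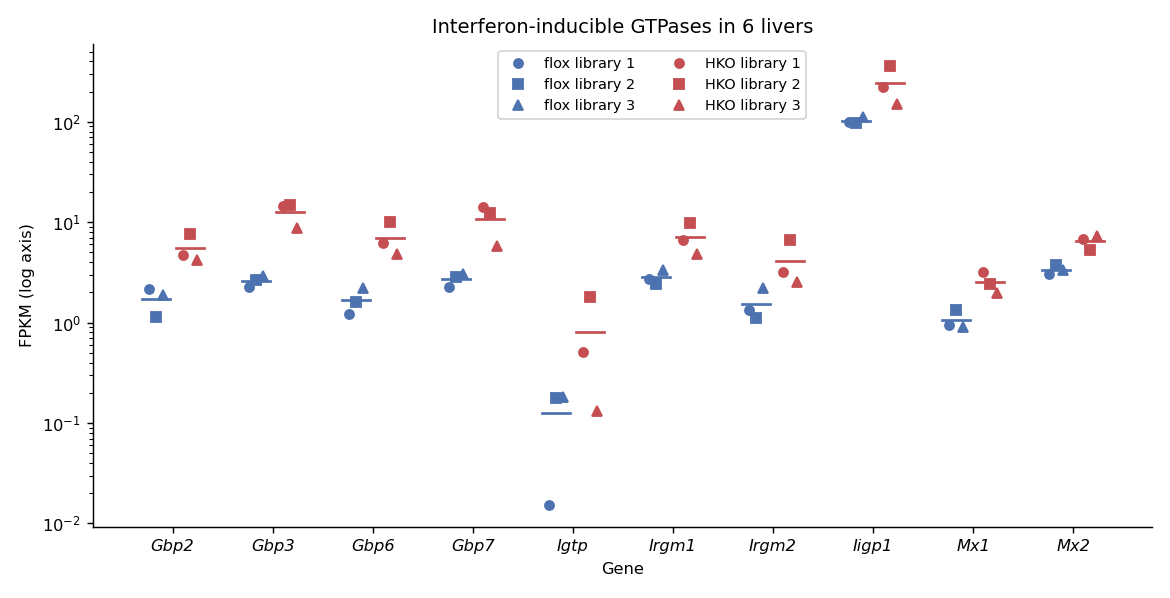
FPKM of the 10 interferon-inducible GTPases in each of 6 livers (log axis), flox and HKO, with a bar at each group mean. Iigp1 lies at 96.3 to 359.9 FPKM, Igtp below the other 9 genes by group mean, and each HKO point lies above each flox point for all genes but Igtp.

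Guanylate-binding proteins are large GTPases that assemble into coats on bacteria and on parasite vacuoles. Gbp3 (gene 55932, chromosome 3, 142560016 to 142573213, plus strand) had 2.25, 2.63 and 2.90 FPKM in flox and 14.5, 14.9 and 8.75 in HKO, listed by library from 1 to 3 here and throughout. The HKO mean was 12.7 ± 3.42 against 2.59 ± 0.328, 4.90 times higher, with a log2 difference of 1.90 (SE 0.21). This was the largest log2 difference of the 9 genes, and HKO library 3 stood below the other 2. The lncRNA gene Gm40158 overlaps Gbp3 on the opposite strand with a mean of 1.05 FPKM, and without a stated strand setting their reads cannot be told apart.

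Gbp7 (gene 229900, chromosome 3, 142530336 to 142550151, plus strand), which helps macrophages to kill intracellular bacteria, had 2.26, 2.82 and 3.05 FPKM in flox and 14.1, 12.3 and 5.85 in HKO. Its mean moved from 2.71 ± 0.406 to 10.7 ± 4.33, a ratio of 3.97 and a log2 difference of 1.59 (SE 0.29). HKO libraries 1 and 2 lay close together and well above HKO library 3, and the groups did not overlap. Gbp2 (gene 14469, chromosome 3, 142620663 to 142638008, plus strand), which is recruited to parasite vacuoles, had 2.15, 1.14 and 1.89 FPKM in flox and 4.76, 7.62 and 4.24 in HKO. The means of 1.73 ± 0.521 and 5.54 ± 1.82 gave a ratio of 3.21 and a log2 difference of 1.25 (SE 0.23). In Gbp2 HKO library 2 was the highest, and libraries 1 and 3 lay close together.

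Gbp6 (gene 100702, chromosome 5, 105270702 to 105295871, minus strand) had 1.23, 1.59 and 2.21 FPKM in flox and 6.15, 9.95 and 4.84 in HKO. The mean was 1.68 ± 0.497 in flox and 6.98 ± 2.65 in HKO, 4.15 times higher, with a log2 difference of 1.54 (SE 0.25). HKO library 2 was again highest and library 3 lowest. Gbp6 has near-identical neighbours in Gbp10 and Gbp11, and Gbp2 in Gbp2b, so their values are uncertain where reads matched several genes.

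Irgm1, Irgm2 and Igtp are the regulatory immunity-related GTPases, whose loss in mice lets the effectors misfire. Irgm1 (gene 15944, chromosome 11, 48865245 to 48871454, minus strand) had 2.72, 2.40 and 3.33 FPKM in flox and 6.60, 9.79 and 4.85 in HKO. The means were 2.82 ± 0.470 and 7.08 ± 2.51, a ratio of 2.51 and a log2 difference of 1.04 (SE 0.23). Irgm2 (gene 54396, chromosome 11, 58214977 to 58222783, plus strand) had 1.32, 1.11 and 2.20 FPKM in flox and 3.21, 6.66 and 2.56 in HKO.
Both genes were highest in HKO library 2 and, within flox, in library 3. For Irgm2, HKO library 3 lay only a little above flox library 3. The Irgm2 mean moved from 1.54 ± 0.578 to 4.14 ± 2.20, a ratio of 2.69 and a log2 difference of 0.96 (SE 0.30), which was 0.63 without HKO library 2.

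Igtp (gene 16145, chromosome 11, 58199556 to 58207592, plus strand), also known as Irgm3, had 0.0153, 0.178 and 0.181 FPKM in flox and 0.509, 1.78 and 0.132 in HKO. These rest on 1, 10 and 12 reads in flox and 33, 132 and 8 in HKO. The groups overlapped, since HKO library 3 lay below flox libraries 2 and 3, and most of the HKO reads came from library 2. In GENCODE M21 the neighbouring gene Irgm2 spans 58199618 to 58222782 and so covers nearly all of Igtp, whereas in the deposited annotation Irgm2 starts at 58214977. Whether reads of Igtp were lost to such an overlap was not tested.

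Iigp1 (gene 60440, chromosome 18, 60373621 to 60392634, plus strand), an effector that loads onto parasite vacuoles and helps to rupture them, was by far the most abundant of the 10. It had 100.03, 96.3 and 111 FPKM in flox and 220.2, 359.9 and 149 in HKO. The spread was small in flox, at 103 ± 7.79, and wide in HKO, at 243 ± 107. Its ratio of 2.37 and log2 difference of 1.15 (SE 0.30) therefore rest on HKO livers that differed widely from each other, and the log2 difference was 0.82 without HKO library 2.

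The Mx genes encode antiviral dynamin-like GTPases that are broken by mutation in many laboratory mouse strains, and both are classed as transcribed pseudogenes in the deposited annotation. Mx1 (gene 17857, chromosome 16, 97447035 to 97462906, minus strand) had 0.942, 1.33 and 0.905 FPKM in flox and 3.20, 2.45 and 1.95 in HKO. Mx2 (gene 17858, chromosome 16, 97536081 to 97560901, plus strand) had 3.02, 3.75 and 3.35 FPKM in flox and 6.76, 5.29 and 7.35 in HKO. Neither gene was highest in HKO library 2, unlike most of the other GTPases.
The Mx1 means of 1.06 ± 0.238 and 2.53 ± 0.626 gave a ratio of 2.39 and a log2 difference of 0.77 (SE 0.17). Those of Mx2, 3.37 ± 0.363 and 6.47 ± 1.06, gave a ratio of 1.92 and a log2 difference of 0.77 (SE 0.15).

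Summed over the 10 genes, the level was 116, 113 and 131 FPKM in flox and 279.9, 431 and 189 in HKO. Iigp1 alone made up 84.8% to 86.3% of that sum in flox and 78.6% to 83.6% in HKO. Without Iigp1 the sum of the other 9 was 15.9, 16.95 and 20.02 FPKM in flox and 59.7, 70.7 and 40.5 in HKO, so the HKO livers stayed above the flox livers. As a share of all reads, the 10 genes took 0.0377% to 0.0516% in flox and 0.0692% to 0.170% in HKO.

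By mean level in flox, Iigp1 was followed by Mx2, Irgm1, Gbp7 and Gbp3, then Gbp2, Gbp6, Irgm2 and Mx1, and last by Igtp. Neighbours in this order overlapped in their library ranges except at 3 steps, between Iigp1 and Mx2, between Gbp3 and Gbp2, and between Mx1 and Igtp. In HKO the order after Iigp1 was Gbp3, Gbp7, Irgm1, Gbp6, Mx2, Gbp2, Irgm2, Mx1 and Igtp. Here neighbours overlapped except at the top step, from Iigp1 to Gbp3, and at the bottom step, from Mx1 to Igtp. Mx2 thus moved from second place in flox to sixth in HKO, behind Gbp3, Gbp7, Irgm1 and Gbp6. However, its HKO range overlapped those of Gbp7, Irgm1 and Gbp6, and its flox range already overlapped those of Irgm1 and Gbp7. Of the genes that passed it, only Gbp3 lay clear of Mx2 in HKO.

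The 3 HKO livers did not carry these transcripts to the same extent. The highest HKO library was library 2 for 7 of the 10 genes, library 1 for Gbp7 and Mx1, and library 3 for Mx2. Library 3 was the lowest of the HKO libraries for 9 of the 10, with Mx2 the exception. Over all genes fitted, the highest HKO library was library 1 for 39.9%, library 2 for 28.6% and library 3 for 31.5%.

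The type I interferon-leaning targets had another order among the same livers. These are 20 genes such as Ifit3, Oasl2 and Irf7, of which 19 were fitted, and 15 of the 19 were highest in HKO library 1 and 3 in library 2. HKO library 2 minus library 1 had a median of 0.51 on the log2 scale over the 9 GTPases, with a range of -0.30 to 0.86, and a median of -0.43 over the 19 type I targets, with a range of -1.29 to 0.41. The median was 0.25 over 10 interferon-gamma-leaning targets, with a range of -2.48 to 1.27, and 0.28 over 10 other interferon-inducible GTPases. It was 0.003 over all genes fitted. Both Mx genes lay below 0, at -0.30 for Mx2 and -0.28 for Mx1, as did Gbp7 at -0.18. All of these fell within the ranges of both the type I and the gamma-leaning targets. Gbp3 lay at 0.04, and Irgm1, Irgm2, Iigp1, Gbp2 and Gbp6 lay at 0.51 to 0.86. These are differences between 2 livers of 1 group and have no replicate.

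**Figure D2:**
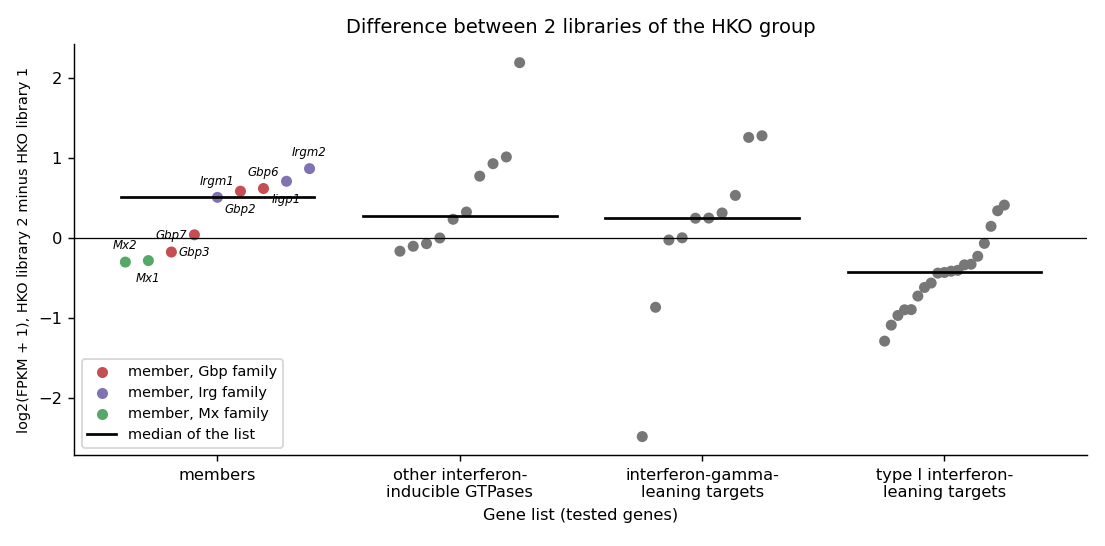
HKO library 2 minus HKO library 1 in log2(FPKM + 1), 1 point per fitted gene, for the 9 GTPases (coloured by family) and 3 other lists, with a line at each list's median. The GTPases' median is 0.51 and that of the type I targets -0.43, and the Mx genes and Gbp7 lie below 0.

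Markers of immune cells also differed between these livers. The 15 T and NK cell markers summed to 3.71, 2.56 and 3.62 FPKM in flox and 7.18, 10.3 and 6.35 in HKO, highest in the same HKO library 2. Only Gzma, a granule protease, and Nkg7 of this list were abundant enough to be fitted, and neither passed. Their log2 differences were 1.10 and 0.48, with adjusted p of 0.0824 and 0.156 by limma with BH adjustment. Gzma and Nkg7 averaged 0.624 and 0.723 FPKM in flox and reached the level for fitting through HKO. The defining markers were near 0, with Cd3e at 0.09 to 0.36 FPKM in flox and 0.31 to 0.68 in HKO, and Ncr1 at 0 to 0.10 and 0.04 to 0.27.
Kupffer cell markers, of the resident liver macrophages, summed to 294, 196 and 282 FPKM in flox and 199.9, 358 and 218 in HKO, and 9 of 10 were highest in HKO library 2 among the HKO libraries. Between the groups 0 of these 10 passed the limma test, 0 also had an unadjusted p under 0.05, against 17% of all genes fitted, and their median log2 difference was -0.11. Recruited monocyte markers summed to 29.7 to 55.02 FPKM in flox and 37.6 to 48.6 in HKO, but most of that sum was Lyz2, at 40.2 ± 12.2 and 32.4 ± 3.86 FPKM. Of the 4 fitted, 3 had each HKO library above each flox library, against 12.8% of all genes: Plac8, Ly6c2 and Fcgr1, with log2 differences of 1.27, 1.14 and 0.56 and adjusted p of 0.0525, 0.167 and 0.246 by limma with BH adjustment. Plac8 and Ly6c2 averaged 0.980 and 0.506 FPKM in flox and reached the level for fitting through HKO. The markers not fitted were Ccr2, Itgam, Chil3 and S100a4, with means of 0.212, 0.214, 0.150 and 0.300 FPKM in flox. Their HKO means were 0.353, 0.138, 0.461 and 0.362, so Itgam was lower. Among the markers not fitted, only Ccr2 had each HKO library above each flox library. Plac8 had 4.21, 4.39 and 2.75 FPKM in HKO, Ly6c2 3.41, 3.39 and 0.857 and Fcgr1 3.21, 2.80 and 1.44. Each of these was lowest in HKO library 3, as was Chil3. The others on the list, Lyz2, Ccr2, Itgam and S100a4, were instead lowest in HKO library 1. The part of these cells in the GTPase levels was not tested.

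Across the 6 libraries, each GTPase was compared with the mean of the other members after standardizing, as a description that includes the difference between the groups. Pearson's r was highest for Gbp6 at 0.990, Irgm1 at 0.984 and Gbp3 at 0.981, followed by Iigp1 at 0.969, Gbp7 at 0.964, Gbp2 at 0.944 and Irgm2 at 0.916. It was lower for Mx1 at 0.878, Igtp at 0.800 and Mx2 at 0.731.

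Of 9404 protein-coding genes outside the set, the 5 with the pattern most like the mean of the GTPases over the 6 libraries included Uba7, H2-Q4, Mtrf1 and Wdr83os. Uba7, the E1 enzyme for the ubiquitin-like protein ISG15, had an r of 0.999 and 5.47, 6.01 and 6.12 FPKM in flox against 12.9, 15.9 and 9.83 in HKO, with a mean of 5.87 ± 0.349 FPKM in flox and 12.9 ± 3.04 in HKO. H2-Q4, a class I histocompatibility gene, had an r of 0.997, with 3.21 ± 0.356 and 7.23 ± 1.77 FPKM. Mtrf1, a mitochondrial translation release factor, and Wdr83os had r of 0.989 and 0.986. Without HKO library 2 the values of these 4 genes were 0.974 to 0.997. The points share their libraries, depth and group in all of these, and Uba7 had the order library 2 above 1 above 3 within HKO, as did 7 of the 10 GTPases.

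Other interferon-inducible GTPases that were not selected were examined next, from a list of 29 symbols of which 20 were found and 10 were fitted. Of the 10, 8 had a higher and 2 a lower mean log2 level in HKO, with a median difference of 0.87. Gbp8, with a mean of 0.965 FPKM in flox, reached the level for fitting through HKO. None passed: 0 of 10 rose and 0 fell by limma with BH adjustment, against 0.268% and 0.22% of all genes fitted, while 7 had an unadjusted p under 0.05, against 17% of all genes, and voom on the recovered reads also called 0. Each HKO library lay above each flox library for 5 of the 10, against 12.8% of all genes, and below for 1, against 12.6%. Gbp9 passed in 1 alternative only, without HKO library 3, its lowest HKO library. Its log2 difference there was 1.31 and its adjusted p 0.0473 by limma with BH adjustment. In the other alternatives its adjusted p reached up to 0.293.

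The largest difference was that of Tgtp1, whose gene name reads T-cell-specific GTPase, though its cells of origin were not measured here. Tgtp1 had 2.38 ± 1.10 FPKM in flox and 10.3, 50.4 and 9.14 in HKO, with a log2 difference of 2.46 (limma with BH adjustment, adjusted p 0.124). HKO library 2 stood far above the other 2, and the value is uncertain because reads could also match the near-identical Tgtp2, which was at 0.00597 to 0.165 FPKM. Gbp10 had 3.27 ± 2.23 and 17.9 ± 7.98 FPKM, a log2 difference of 2.17 and an adjusted p of 0.0932. Gbp11, classed as a transcribed pseudogene, had 3.74 ± 2.42 and 11.7 ± 5.93 FPKM, with 1.40 and an adjusted p of 0.213. Both are uncertain where reads matched several of these neighbours.
Gbp9 had 1.40 ± 0.336 and 4.11 ± 1.46 FPKM, a log2 difference of 1.05 and an adjusted p of 0.0989, and Gbp4 had 1.08 ± 0.655 and 3.75 ± 2.22, with 1.13 and 0.187. Log2 differences for Gbp2b, Gbp8 and Gm4951, an immunity-related GTPase gene, were 0.70, 0.44 and 0.40, with adjusted p of 0.355, 0.503 and 0.187 by limma with BH adjustment. The exceptions in direction were F830016B08Rik, at 4.66 ± 0.699 and 3.46 ± 0.550 FPKM with an adjusted p of 0.312, and Irgq, at 4.10 ± 0.704 and 2.24 ± 0.0901 FPKM with an adjusted p of 0.0914. Irgq is an immunity-related GTPase homologue that lacks a working GTP-binding motif and is not known as interferon-inducible. For Irgq the groups did not overlap.
Below the level for fitting were Gbp5, with means of 0.569 FPKM in flox and 1.25 in HKO, Gm4841, with 0.136 and 1.06, and Gvin1, Gm5431, Ifi47, Tgtp2, 9930111J21Rik1 and Gm12250. Irgc1 and 9930111J21Rik2 were listed at 0 in every library.

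The guanylate-binding protein genes lie in 2 clusters, and their fitted genes stood higher in HKO. The nearest fitted protein-coding genes outside lay near 0 or below it. Only protein-coding genes were taken as neighbours here and below. The cluster on chromosome 3 spans 142496934 to 142638008, 141 kb, and holds in order Gbp5, Gbp7, Gbp3, Gbp2b and Gbp2. Its nearest fitted neighbours were Pdlim5, 101.2 kb away, with a log2 difference of 0.09 and an adjusted p of 0.779, and Kyat3, 63.0 kb away, with -0.40 and 0.490, both by limma with BH adjustment. Between them the 4 fitted Gbp genes had log2 differences of 0.70 to 1.90. The cluster on chromosome 5 spans 105012513 to 105346476, 334 kb, and holds Gbp8, Gbp9, Gbp4, Gbp10, Gbp6 and Gbp11, with log2 differences of 0.44 to 2.17. Its neighbours Pkd2, 507 kb away, and Lrrc8d, 353 kb away, had log2 differences of 0.11 and 0.02, with adjusted p of 0.711 and 0.939. Whether the cluster genes differed from their neighbours beyond these values was not tested.

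**Figure D3:**
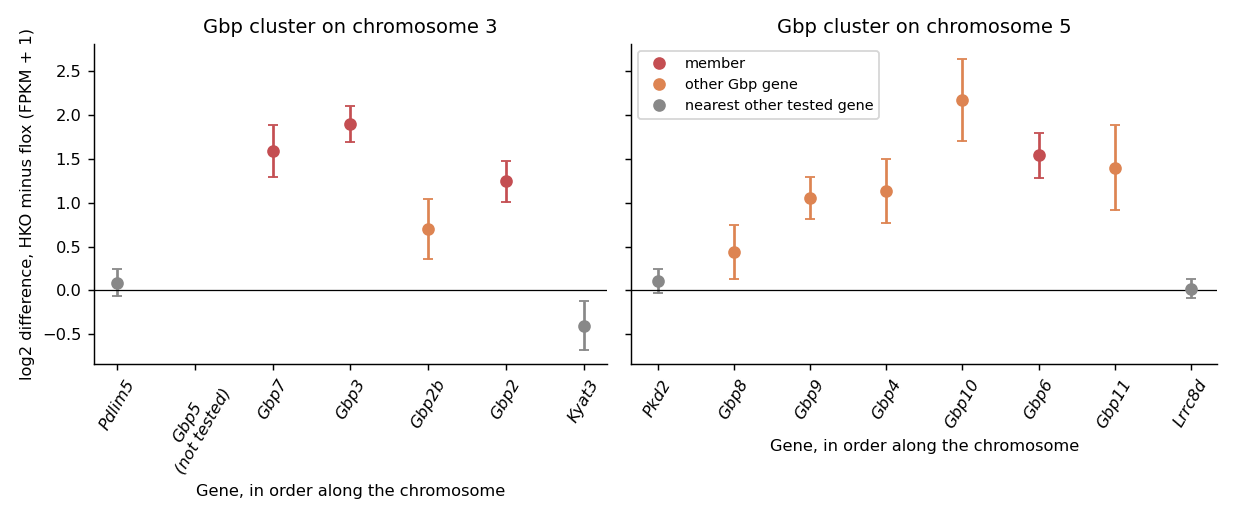
Log2 difference, HKO minus flox, of log2(FPKM + 1) with its standard error, for the fitted genes of the 2 Gbp clusters in gene order. Their nearest fitted protein-coding neighbours are also shown. The Gbp genes lie at 0.44 to 2.17 and the 4 neighbours at -0.40 to 0.11.

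Irgm1, Irgm2 and Igtp lie on chromosome 11, as does Alkbh5. Igtp is 2.34 Mb, Irgm2 2.32 Mb and Irgm1 11.7 Mb from Alkbh5. Of 66 other fitted genes within 3 Mb of Alkbh5, 1 rose, Srebf1, the lipogenic transcription factor, and 0 fell by limma with BH adjustment. Among the 10453 genes fitted, 0.268% rose and 0.22% fell, so little is read from 1 gene in 66. Beside Igtp and Irgm2, Mrpl22 and Zfp692 had log2 differences of -0.06 and -0.10, with adjusted p of 0.919 and 0.847. Beside Irgm1, Trim41 and Zfp62 had -0.13 and 0.07, with adjusted p of 0.705 and 0.797. Next to the Mx genes on chromosome 16, Bace2 had 0.52 and an adjusted p of 0.160, and Tmprss2 had 0.04 and 0.931.

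Interferon transcripts themselves were almost absent. Of 10 interferon genes found, 8 were listed at 0 in every library and none reached the level for fitting. Ifng had 0.05, 0 and 0 FPKM in flox and 0.05, 0 and 0.06 in HKO, and Ifnk was the other gene above 0.

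The receptors for these cytokines did not pass the test. Ifngr1, a subunit of the interferon-gamma receptor, had 7.27 ± 1.04 FPKM in flox and 8.36 ± 0.825 in HKO, and Ifngr2 had 11.9 ± 2.68 and 10.97 ± 2.30, with adjusted p of 0.547 and 0.808 by limma with BH adjustment. Ifnar1 and Ifnar2, the type I receptor, had 6.83 ± 0.748 and 15.4 ± 0.211 FPKM in flox and 6.40 ± 0.584 and 14.8 ± 2.76 in HKO, with adjusted p of 0.771 and 0.843. The small differences of Ifngr2 and Ifnar2 changed sign under some alternatives. Among the receptor-bound kinases, Jak1, Jak2 and Tyk2 had log2 differences of 0.16, 0.35 and 0.21, with adjusted p of 0.598, 0.305 and 0.397.

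Of 17 fitted genes among receptors, kinases and factors, 13 had a higher and 4 a lower log2 level, with a median of 0.18, and by limma with BH adjustment 0 passed in either direction, 2 of them having an unadjusted p under 0.05, against 17% of all genes. Stat2 and Irf9, which act together in type I signalling, had log2 differences of 0.27 and 0.28, with adjusted p of 0.422 and 0.395. Irf1, an early factor induced by interferon-gamma, had 6.02 ± 1.64 FPKM in flox and 6.36, 19.8 and 9.57 in HKO, with an adjusted p of 0.357. Like most of the GTPases, Irf1 was highest in HKO library 2.
Irf2 had 7.94 ± 1.29 and 12.7 ± 2.07 FPKM and an adjusted p of 0.147. Socs1, a feedback inhibitor of the JAK kinases, was below the level for fitting, at 0.23, 0.43 and 0.27 FPKM in flox and 0.47, 1.55 and 1.74 in HKO.

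Interferon targets outside the GTPases were taken as 2 lists. In the type I-leaning list 19 of 20 genes were fitted and all 19 had a higher log2 level in HKO, with a median of 1.08. Ifit2 and Oas3 averaged 0.707 and 0.571 FPKM in flox and reached the level for fitting through HKO. The gene not fitted was Isg15, a classical target, which was listed at 0 in 5 libraries and at 0.0952 FPKM in flox library 2. Of the 19, 5 rose by limma with BH adjustment, against 0.268% of all genes: Ifi44, the RNA-binding antiviral protein gene Ifit3, the oligoadenylate synthetase-like gene Oasl2, Rtp4 and the transcription factor gene Irf7. Their log2 differences were 2.51, 1.52, 1.39, 1.37 and 1.13, and their adjusted p 0.0297 to 0.0410. In the interferon-gamma-leaning list 10 of 20 were fitted, 8 with a higher and 2 with a lower level, with a median of 0.80. By limma with BH adjustment 0 passed either way, with 7 at an unadjusted p under 0.05, against 17% of all genes. Psmb8 and Cd274 averaged 0.0909 and 0.651 FPKM in flox and reached the level for fitting through HKO. Both count among the 8 higher and among the 7. The number passing over these lists and the signalling genes was 5, and it was 0 without flox library 1, without flox library 2 or without HKO library 2. It was 3 without flox library 3, 1 without HKO library 1 and 6 without HKO library 3. Over all genes fitted, the number passing higher was 28, and 0 without flox library 1, flox library 2 or HKO library 2. That total was 29 without flox library 3, 1 without HKO library 1 and 20 without HKO library 3.

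The gamma-leaning chemokines Cxcl9 and Cxcl10, which draw T cells, had 3.89 ± 0.964 and 1.80 ± 1.005 FPKM in flox and 7.43 ± 0.440 and 6.28 ± 2.10 in HKO, with adjusted p of 0.0815 and 0.0911. Nlrc5, the activator of class I histocompatibility genes, had 4.91 ± 0.921 and 8.83 ± 1.45 FPKM and an adjusted p of 0.0997. Ido1 and Ubd were listed at 0 in every library. The immunoproteasome subunit gene Psmb8 was uneven within HKO, at 5.40, 0.147 and 2.09 FPKM, and is the lowest gamma-leaning point in the plot of HKO library 2 minus 1. Near it on chromosome 17, Tap1 had 0.0965, 2.86 and 0.0708 FPKM in HKO, and H2-Ab1 5.25, 0.0340 and 0.0432 in flox. Whether such values reflect the livers or the counting of reads was not tested.

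GTPases of the dynamin superfamily that work in membrane fission and fusion outside the interferon system were taken as a further list, which was not set against the selected genes by any test. Of 9 fitted, 5 had a higher and 4 a lower log2 level, with a median of 0.02 and a range of -0.60 to 0.30, and by limma with BH adjustment 0 passed in either direction, 0 having an unadjusted p under 0.05, against 17% of all genes. The examples with the smallest p were Atl2 at -0.60, Atl3 at 0.30 and Dnm2 at -0.22, with adjusted p of 0.310, 0.477 and 0.555. For 0 of the 9 did the groups not overlap, against 12.8% of all genes above and 12.6% below, so little is read from this count in a list of 9.

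The ATG8 conjugation machinery, which places guanylate-binding proteins and immunity-related GTPases on pathogen vacuoles, had 11 of 12 genes fitted, 3 with a higher and 8 with a lower log2 level and a median of -0.09. By limma with BH adjustment 0 passed in either direction and 1 had an unadjusted p under 0.05, against 17% of all genes. Map1lc3a, an ATG8 protein, had 49.5 ± 6.43 FPKM in flox and 20.5 ± 11.4 in HKO, a log2 difference of -1.40 and an adjusted p of 0.183. Atg16l1 and Gabarapl1 had -0.22 and 0.31, with adjusted p of 0.385 and 0.458.

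**Figure D4:**
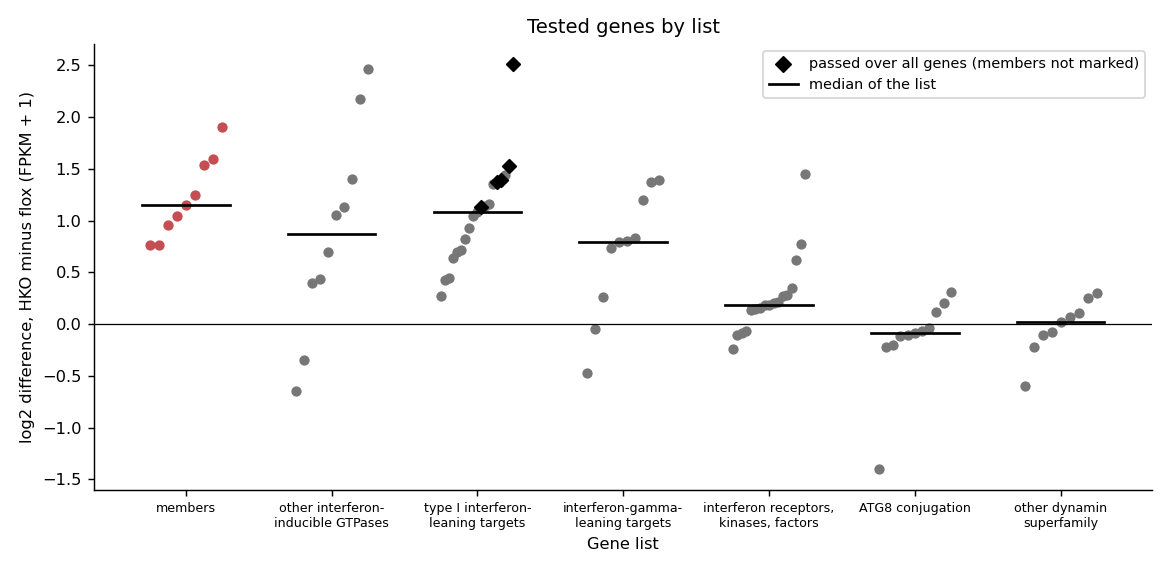
Log2 difference, HKO minus flox, of log2(FPKM + 1), 1 point per fitted gene, by gene list, with a line at each median and diamonds for genes that passed the limma test with BH adjustment (the selected GTPases are not marked). The 9 GTPases lie at 0.77 to 1.90, type I targets have a median of 1.08 and the dynamin superfamily outside the interferon system one of 0.02.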

How the data were processed

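Poly(A) RNA of 3 flox and 3 HKO livers was sequenced in pairs, per the labels' protocols. Per the series text, reads were aligned to GRCm38.p6 with HISAT2 2.0.5 and counted with featureCounts 1.5.0-p3, and the submitters' processing notes add CASAVA and DESeq2 1.20.0. The sources used here do not state the annotation, the strand setting or how multi-mapped reads were counted. The deposited table holds FPKM, which the authors scaled by a library size 0.925 to 1.08 times the sum of reads. Of the products of FPKM and gene length, 100% were whole multiples of 1 read within 0.001.

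The 10453 genes averaging 1 FPKM or more were fitted with R 4.3.3 and limma 3.58.1 (trend, robust) on log2(FPKM + 1), HKO minus flox, with no covariate and BH adjustment at 0.05 over all of them. The procedure was tested on simulated data. P-values set the difference between the groups against the spread of these 6 livers within their groups. For each gene, limma draws that spread towards a trend over all genes.

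The members and the 19 gene lists were chosen with earlier results of these data known. Named genes are Alkbh5, the members, every other interferon-inducible GTPase found, the main signalling genes, the passing or up to 3 smallest-p genes of each function list, defining cell markers, and the 5 genes most like the members. Cluster neighbours, Socs1's level per library, Psmb8, Tap1, H2-Ab1, Cd274, Ifit2, Oas3, Isg15 and Tgtp2's level were picked after values were seen. So were the values of Gzma, Nkg7 and the recruited monocyte markers. Motif searches used RefSeq windows of GRCm38.p6, and figures Python 3.11.15 with matplotlib 3.10.9. Alternatives were 15, plus 2 added after seeing the data. Protein sequences were not used here. One gene that the naming rule takes is not reported here.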

Additional observations from a re-analysis of the deposited data

How the results depend on the processing

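Over 15 other settings and 2 chosen after seeing the data (limma or voom after rescaling to the sum of reads), no GTPase changed direction. Since each HKO library lay above each flox library, that was fixed in advance for many settings. These were another pseudocount or filter, a block on the replicate number and a library left out. Of the GTPase values, 124 stayed within 1 SD of those reported and 23 moved further, all of the latter with another pseudocount, TPM or voom. Gbp3 ranged from 1.202 to 2.34 and Mx1 from 0.31 to 1.32. Leaving out 1 library gave 0.63 to 1.18 for Irgm2, 0.82 to 1.45 for Iigp1 and 1.78 to 2.13 for Gbp3. Genes passing numbered 28 higher and 23 lower, against 18 higher with a pseudocount of 0.1, 0 and 1 with no filter (2514 at an unadjusted p under 0.05) and 78 and 42 with voom on the sum of reads. The 5 passing pathway genes became 0 with no filter, 10 with voom and 11 with voom on the sum. With each library left out, the ranges were 0 to 29 higher, 1 to 38 lower, 0 to 6 for the pathway, 0 to 1 for other GTPases and -3.63 to -3.50 for Alkbh5. With the replicate number as a block, 1 gene passed higher, 8 lower and 0 in the pathway. Same-numbered libraries deviated with correlations of 0.15, -0.14 and -0.05. The labels tie them by number only, and whether they share more cannot be told from 3 livers per group. Ifnar2 reversed to 0.0034 with TPM, 0.0015 with rescaling and 0.00089 with voom on the sum, and spanned -0.16 to 0.083 with libraries left out. Ifngr2 spanned -0.26 to 0.056. The cause of these shifts was not tested. Scaling moved the median of all genes by under 0.1.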
